A study of Mus musculus with 2 samples.

Results

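The immediate early response genes examined here are transcription factors and regulators that cells switch on within minutes of a stimulus. They comprise 44 named genes. Probes were taken by the gene name in the array files, or by its older name (Jund1 for Jund, Sgk for Sgk1), which gave 61 probes for 43 genes among 41150 probes on the array. No probe carried the name Dusp5, which was not analysed here. A probe was kept where a region's signal stood well above background in both hybridisations, which kept all 61 (58 of them for both regions) and 30521 probes in all.

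RNA from the aortic arch, a region prone to atherosclerosis, was set against RNA from the central thoracic aorta, a resistant region, in wild-type C57Bl/6 mice aged 16 weeks. The arch piece ran from the root to 2 mm into the descending thoracic segment, and the thoracic piece was the following 6 mm. All vessels had been perfused with the detergent Triton X-100 to strip the endothelium. RNA of 6 mice, 3 males and 3 females, made 1 pool a region. Both pools were hybridised to 2 two-colour Agilent arrays as a dye swap, the arch being labelled with Cy5 on array 1 and with Cy3 on the other. With 1 pool a region there is no biological replicate check, no test and no p-value. Ratios are given as log2 of arch over thoracic aorta, as the mean of both arrays, and ± stands for how far each array lay from the mean, a technical error only. Levels are normalised intensities that include an added offset of 50 units. Where the readings of the regions are said not to overlap, they are readings of the same pools on 2 arrays. Such a gap covers technical error only, and the share of all genes that show it is not given here. The call of lower or higher required 1.5-fold or more in 1 direction on each array, and a gene took the value of 1 probe, the one with the strongest signal.

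Immediate early genes need no new protein synthesis for their induction. Growth factors, stretch, calcium or cyclic AMP act through MAP kinases and cyclic AMP-dependent kinase on the factors SRF with its Elk partners and CREB, which already sit on the promoters. The first products, such as the AP-1, Egr and Nr4a factors, drive later genes. Phosphatases, RNA-decay proteins and inhibitors made in the same wave shut the response down. In vessel walls these genes respond to injury, stretch and vasoactive hormones.

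Members called in these pools were all lower in the arch. They were 5 of the 61 probes, against a background of 0.183% of all kept probes, and none was higher (background 0.21%). By gene they were 4 of 43, the nuclear receptors Nr4a1 and Nr4a2 and the growth-arrest genes Btg2 and Gadd45b, against 0.229% of 21367 genes called lower and 0.257% called higher. The fifth probe was one of a pair for Junb. Members and their groups were chosen with earlier results of these data known, so these shares are a description and no test. Another group of members, including Egr1, Egr2, Jun, Fosb, Jund, Sgk1 and Nr4a3, measured within 0.05 of 0. With median centring the genes named ran from −0.20 for Jund to 0.01 for Nr4a3. The readings of Nr4a3 lay close to the offset, so its ratio carries little signal. In bulk pools of this kind, fewer cells of a type and less RNA per cell cannot be told apart.

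Counts at looser cuts, which include the genes already called lower, leaned the same way. Of the 43 genes, 14 had a mean ratio below −0.2, against 2.88% of all genes, and 2 had one above 0.2, against 3.98%. Ratios were below 0 on both arrays for 20 genes (background 26.5%) and above 0 on both for 8 (background 28.4%), and the arrays differed in sign for 15. The central 95% of all genes ran from −0.21 to 0.25, and 13 members lay below that range and 1 above it. The mean alone was below 0 for 30 genes (background 48.5%), and for 34 with median centring (background 65.6%). The median of the members was −0.04, beside 0.00 for all genes. Counted from the lowest of the 21367 ratios, Btg2 ranked 32, Nr4a2 36, Gadd45b 40, Nr4a1 44, Fos 49, Junb 70, Gadd45g 83, Socs3 84, Ier3 125 and Dusp1 181.

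**Figure D1:**
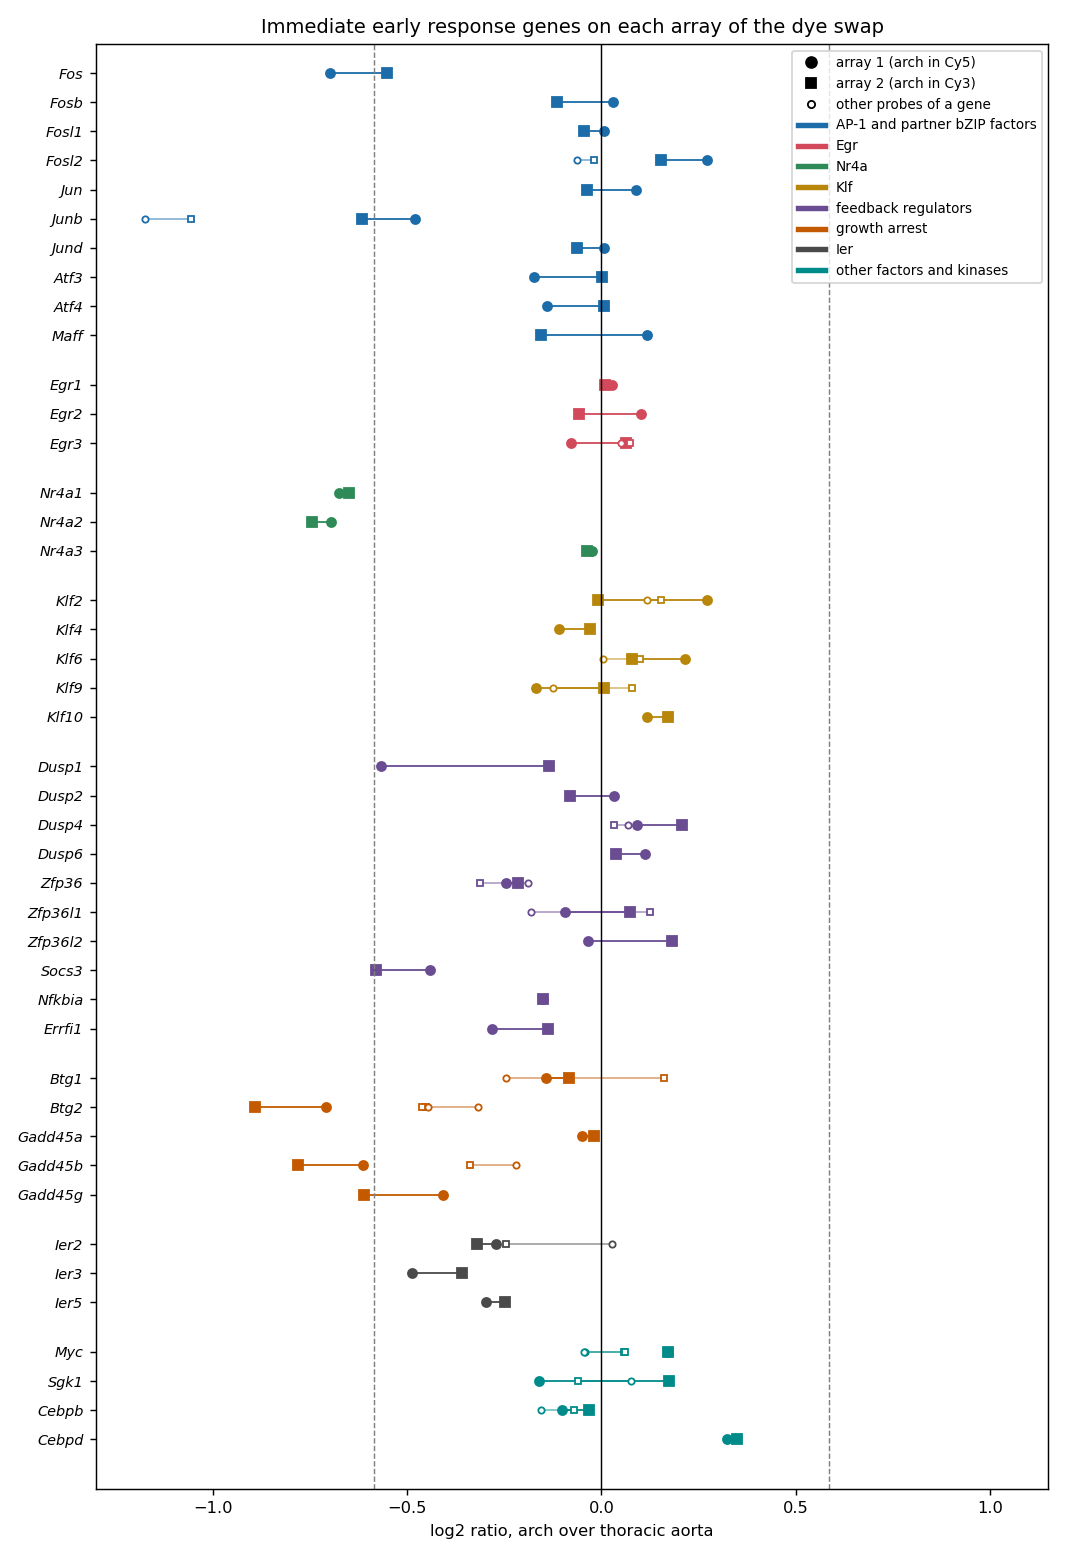
Log2 ratio of arch over thoracic aorta (x axis) for each of the 43 measured genes (y axis, coloured by group), with 1 point per array joined by a line and open points for the other probes of a gene. Dashed lines mark 1.5-fold, and both points of Nr4a1, Nr4a2, Btg2, Gadd45b and the second Junb probe lie beyond the lower line, while no point lies beyond the upper one.

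The AP-1 group holds Fos and Jun proteins, which pair through leucine zippers and bind AP-1 sites, with the related factors Atf3, Atf4 and Maff. Of its 10 genes 0 were called (background 0.229% lower and 0.257% higher), and among so few genes a count of 0 is near those shares. By probe, 1 of 12 was called lower (background 0.183%), the second for Junb. A mean below 0 was found for 8 genes (background 48.5%), and the median was −0.03. Fos and Junb stood apart from the other 8, which ran from −0.09 to 0.21. Fos, the prototype immediate early factor, had levels of 135 and 139 units in the arch pool on arrays 1 and 2, against 218 and 204 in the thoracic pool. Both arch readings were below both thoracic ones. Its ratio was −0.70 on array 1 and −0.55 on array 2 (mean −0.62 ± 0.07), so the second array missed the rule by a small margin.

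Junb, a Jun protein that often restrains growth, was read by 2 probes that agreed in direction and differed in size. The first gave 3325 and 3387 units in the arch, against 4635 and 5194 in the thoracic aorta, a ratio of −0.55 ± 0.07 that missed the rule on array 1. The second gave 1825 and 1811 units in the arch, against 4121 and 3768 in the thoracic aorta, a ratio of −1.12 ± 0.06 (2.17-fold lower in the arch). The readings of the regions did not overlap at either probe. The distance of 0.57 between these probes was the largest among the 16 members with several probes. Of those 16 genes, 12 had probes within 0.2 of each other.

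The promoters of Fos and Junb are shown because these genes were the lowest of the AP-1 group. They are the 250 bases before the annotated start in RefSeq's GRCm38.p6 assembly, chr12:85473640-85473889 on the plus strand for Fos and chr8:84978749-84978998 on the minus strand for Junb. Capitals mark TGACG or CGTCA, the half-site of the cyclic AMP response element that CREB binds, and in Fos also the TATA box letters TATAAA. The Fos window holds half-sites at 129 to 125 and 66 to 62 bases before the start and the TATA letters at 33 to 28, and the Junb window holds 1 half-site at 106 to 102.
Fos: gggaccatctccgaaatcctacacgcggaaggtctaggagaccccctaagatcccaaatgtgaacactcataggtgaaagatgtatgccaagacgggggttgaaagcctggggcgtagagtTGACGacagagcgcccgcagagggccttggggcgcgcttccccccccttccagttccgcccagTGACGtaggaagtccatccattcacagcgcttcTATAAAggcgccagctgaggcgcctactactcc
Junb: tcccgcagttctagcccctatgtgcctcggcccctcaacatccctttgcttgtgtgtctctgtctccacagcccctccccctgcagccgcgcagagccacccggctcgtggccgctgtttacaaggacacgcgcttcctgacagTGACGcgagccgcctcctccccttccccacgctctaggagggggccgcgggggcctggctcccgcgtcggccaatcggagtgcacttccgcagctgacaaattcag

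The other AP-1 genes showed no difference of that size. Jun, the main partner of Fos, had 403 and 352 units in the arch, against 379 and 361 in the thoracic aorta (0.03 ± 0.06). Jund measured −0.03 ± 0.03 and Fosb, the close relative of Fos, −0.04 ± 0.07. Fosl1 (−0.02 ± 0.03) and Maff (−0.02 ± 0.14) were also near 0. The stress factors Atf3 and Atf4 measured −0.09 ± 0.09 and −0.07 ± 0.07. Fosl2 was read as 0.21 ± 0.06 by one probe and −0.04 ± 0.02 by another, so its direction depends on the probe. Median centring in place of loess turned the sign of Jun to −0.12 and of Fosl1 to 0.02.

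Egr proteins are zinc finger factors whose genes respond to SRF and Elk. None of the 3 genes was called (background 0.229% lower and 0.257% higher). The median of 0.02 changed sign to −0.02 with median centring. Egr1 had levels of 427 and 532 units in the arch and 419 and 529 in the thoracic aorta. The arrays thus differed from each other more than the regions did, and the ratio was 0.02 ± 0.01. Egr2 measured 0.02 ± 0.08. Egr3 gave −0.01 ± 0.07 and 0.06 ± 0.01 at its probes, with all readings at most 73.3 units, close to the offset, and the second of them was well above background in the thoracic aorta on 1 array only. Fos and Egr1, which are commonly induced by the same stimuli, therefore had different values here, −0.62 and 0.02. That difference was not tested, since each gene has 1 ratio from 1 pair of pools.

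Nr4a genes encode orphan nuclear receptors, and their activity is set mainly by how much of them is made. In the arch Nr4a1 and Nr4a2 were called lower (background 0.229%) and Nr4a3 was not, for a group median of −0.66. Nr4a1, called Nur77, had 1742 and 1792 units in the arch, against 2781 and 2813 in the thoracic aorta. The arrays gave −0.67 and −0.65 (mean −0.66 ± 0.01, 1.58-fold lower in the arch). Nr4a2, called Nurr1, had 194 and 182 units in the arch, against 315 and 304 in the thoracic aorta, and a ratio of −0.72 ± 0.02 (1.65-fold lower in the arch). For both genes each arch reading was below each thoracic one. Nr4a3, called Nor-1, had 71.1 and 63.3 units in the arch and 72.3 and 65 in the thoracic aorta. These readings overlapped, lay close to the offset and were well above background in the thoracic aorta on 1 array only, so its ratio of −0.03 ± 0.01 carries little signal.

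The promoters of the 3 Nr4a genes are shown because the family holds more half-sites than the other members matched. In RefSeq's GRCm38.p6 they are chr15:101266596-101266845 on the plus strand (Nr4a1), chr2:57124004-57124253 on the minus strand (Nr4a2) and chr4:48045055-48045304 on the plus strand (Nr4a3). Each window holds 4 half-sites, in capitals, and this holds for Nr4a3 as well, whose probe measured near 0.
Nr4a1: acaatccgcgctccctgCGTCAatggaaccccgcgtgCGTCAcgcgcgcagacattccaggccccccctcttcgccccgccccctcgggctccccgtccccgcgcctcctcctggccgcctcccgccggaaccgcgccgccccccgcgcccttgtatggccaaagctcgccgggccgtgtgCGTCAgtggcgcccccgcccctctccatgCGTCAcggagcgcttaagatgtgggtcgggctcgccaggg
Nr4a2: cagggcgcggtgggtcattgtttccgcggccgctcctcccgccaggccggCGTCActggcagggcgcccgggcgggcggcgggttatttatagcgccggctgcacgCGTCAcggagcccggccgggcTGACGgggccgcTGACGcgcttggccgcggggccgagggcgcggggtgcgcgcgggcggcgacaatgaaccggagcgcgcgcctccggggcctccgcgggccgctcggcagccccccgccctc
Nr4a3: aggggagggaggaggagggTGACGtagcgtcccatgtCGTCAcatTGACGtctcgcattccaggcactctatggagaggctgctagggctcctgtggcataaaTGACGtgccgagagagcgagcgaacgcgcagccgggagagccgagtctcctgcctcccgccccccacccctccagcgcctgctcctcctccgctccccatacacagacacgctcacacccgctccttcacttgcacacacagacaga

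**Figure D2:**
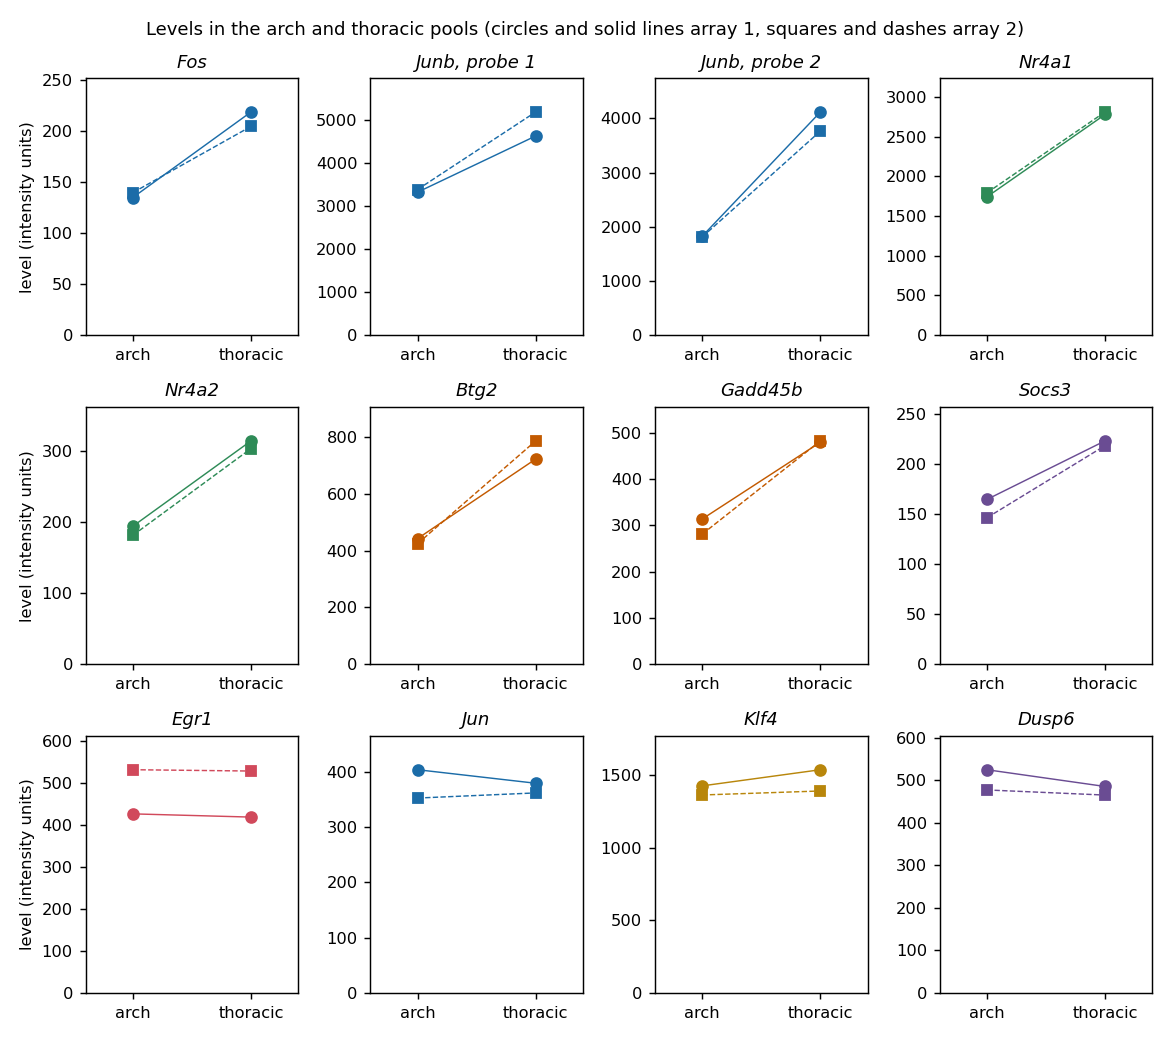
Normalised level in intensity units, offset of 50 included (y axis, from 0), in the arch and the thoracic pool (x axis) for 12 probes, with circles for array 1 and squares for array 2. Arch points lie below thoracic points on both arrays for Fos, both Junb probes, Nr4a1, Nr4a2, Btg2, Gadd45b and Socs3, while Egr1, Jun, Klf4 and Dusp6 run nearly level.

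Krüppel-like factors are zinc finger proteins of which Klf2 and Klf4 are known for flow-responsive expression in endothelium, and Klf4 also for its part in smooth muscle dedifferentiation. None of the 5 genes was called (background 0.229% lower and 0.257% higher). The median of 0.13 became −0.04 with median centring. Klf2 had 2715 and 2305 units in the arch and 2248 and 2319 in the thoracic aorta at one probe, where the readings of the regions overlapped (0.13 ± 0.14). Another probe gave 0.14 ± 0.02, and with median centring both turned to −0.04 and −0.03. Klf4 measured −0.07 ± 0.04, and Klf9, a glucocorticoid-responsive member, −0.08 ± 0.09 and −0.02 ± 0.10. Klf6 gave 0.15 ± 0.07 and 0.05 ± 0.05, both below 0 with median centring. Klf10, a TGF-beta-inducible factor, measured 0.14 ± 0.03. The endothelial markers were dim in both pools: 9 of 10 were measured, with readings from 67 to 152 units, Tie1 had no probe above background, and the summed level was 962 and 981 in the arch against 915 and 938 in the thoracic aorta.

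Feedback regulators end the response at several levels. None of the 10 genes measured was called (background 0.229% lower and 0.257% higher). Of these genes 7 had a mean below 0 (background 48.5%), and the median was −0.09. Dusp1, a nuclear phosphatase that switches off MAP kinases, had 1593 and 1891 units in the arch, against 2360 and 2076 in the thoracic aorta. The regions did not overlap, but the ratio was −0.57 on array 1 and −0.13 on array 2 (mean −0.35 ± 0.22), the widest distance between arrays of any member probe. The related phosphatases Dusp2 (−0.02 ± 0.06), Dusp4 (0.15 ± 0.06 and 0.05 ± 0.02) and Dusp6 (0.07 ± 0.04), the last a cytoplasmic phosphatase of ERK, were closer to 0, and Dusp6 turned to −0.08 with median centring.

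Socs3, an inhibitor of cytokine receptor signalling, had 165 and 146 units in the arch, against 223 and 219 in the thoracic aorta, again with no overlap. Its ratio was −0.51 ± 0.07. Zfp36, or tristetraprolin, which speeds the decay of AU-rich mRNAs, measured −0.23 ± 0.02 and −0.25 ± 0.06 at its probes. Its relatives Zfp36l1 (−0.01 ± 0.08 and −0.03 ± 0.15) and Zfp36l2 (0.07 ± 0.11) did not share that value, and Zfp36l2 was well above background in the arch on 1 array only. Errfi1, an inhibitor of the EGF receptor, measured −0.21 ± 0.07. Nfkbia, the NF-kappaB inhibitor IkappaB-alpha, had 2782 and 2280 units in the arch and 3085 and 2530 in the thoracic aorta. Its regions overlapped across arrays, yet each array gave −0.15.

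The growth-arrest group had 2 of 5 genes called lower (background 0.229%), all 5 below 0 on both arrays (background 26.5%) and a median of −0.51. The group was chosen with earlier results of these data known, so these shares are a description only. Btg2, an antiproliferative protein that recruits the deadenylase complex, had 443 and 425 units in the arch, against 724 and 788 in the thoracic aorta. Its ratio was −0.80 ± 0.09 (1.74-fold lower in the arch), the lowest of the 43 genes. Other Btg2 probes gave −0.38 ± 0.07 and −0.45 ± 0.01, in the same direction but under the rule. Its relative Btg1 measured −0.11 ± 0.03 and −0.04 ± 0.20.

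Gadd45b, a stress sensor that binds MAP kinase kinases, had 314 and 281 units in the arch, against 480 and 483 in the thoracic aorta. Its ratio was −0.70 ± 0.08 (1.62-fold lower in the arch), and another probe gave −0.28 ± 0.06. Gadd45g had 2762 and 2408 units in the arch, against 3663 and 3680 in the thoracic aorta (−0.51 ± 0.10), and met the rule on array 2 only. In Btg2, Gadd45b and Gadd45g the arch readings were below the thoracic ones throughout. Gadd45a, the p53-responsive member, measured −0.03 ± 0.02.

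The promoters of Btg2 and Gadd45b are shown as those of the genes called in this group. They lie at chr1:134079156-134079405 on the minus strand (Btg2) and chr10:80929841-80930090 on the plus strand (Gadd45b) in RefSeq's GRCm38.p6. The Btg2 window holds the complete palindrome TGACGTCA, in capitals, at 166 to 159 bases before the start. The Gadd45b window holds no half-site, and its capitals mark TATAAA at 46 to 41.
Btg2: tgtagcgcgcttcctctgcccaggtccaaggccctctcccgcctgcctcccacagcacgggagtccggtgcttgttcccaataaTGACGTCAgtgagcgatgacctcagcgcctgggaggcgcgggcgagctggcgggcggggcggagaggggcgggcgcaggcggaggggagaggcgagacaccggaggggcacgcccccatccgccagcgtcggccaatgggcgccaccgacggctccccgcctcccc
Gadd45b: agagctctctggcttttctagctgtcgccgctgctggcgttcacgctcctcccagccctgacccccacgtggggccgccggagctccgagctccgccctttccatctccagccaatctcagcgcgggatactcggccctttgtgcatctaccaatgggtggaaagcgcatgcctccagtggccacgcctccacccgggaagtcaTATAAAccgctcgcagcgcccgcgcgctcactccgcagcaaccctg

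The Ier genes, named for their immediate early response, were below 0 on both arrays in 3 of 3 cases (background 26.5%). Of them 0 were called lower (background 0.229%), and their median was −0.30. This group too was chosen with earlier results of these data known. Ier3, a regulator of apoptosis, had 288 and 296 units in the arch, against 403 and 379 in the thoracic aorta (−0.42 ± 0.06). Ier5 had 381 and 353 units in the arch, against 468 and 419 in the thoracic aorta (−0.27 ± 0.02). Neither overlapped between regions. Ier2 gave −0.30 ± 0.02 and −0.11 ± 0.14 at its probes, and at the second the arrays differed in sign.

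Among the other factors and kinases 0 of 4 genes were called (background 0.229% lower and 0.257% higher). The median of 0.09 became −0.04 with median centring. Cebpd, a leucine zipper factor of acute-phase and adipogenic responses, had the highest ratio of all members. Its levels were 10429 and 11082 units in the arch, against 8339 and 8702 in the thoracic aorta, without overlap. The ratio was 0.34 ± 0.01, and 0.16 with median centring. Its relative Cebpb measured −0.07 ± 0.03 and −0.11 ± 0.04. Myc, the growth-promoting factor, gave 0.17 ± 0.00 at one probe and 0.01 ± 0.05 at both others, and the kinase Sgk1 gave 0.01 ± 0.17 and 0.01 ± 0.07.

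Whether a member met the rule depended on how the signals were processed, mostly for dim probes. The offset of 50 pulls the ratio of a dim probe towards 0. Without it Fos was −0.90 and Socs3 −0.71, and both were called, as was a further Btg2 probe (−0.77). That made 8 member probes lower (background 0.413%) and 0 higher (background 0.478%), and 6 member genes lower (background 0.487%). The scanner software's own ratios gave −0.95 for Fos, −0.95 for Nr4a2 and −0.74 for Socs3. They also called 8 member probes lower (background 0.524%) and 0 higher (background 0.655%), and 6 genes lower (background 0.599%). Median centring called 6 member probes lower (background 0.278%) and 0 higher (background 0.115%), and 5 genes lower (background 0.351%), with Fos at −0.71 among them. It moved 53 of the 61 member probes lower and the median of all genes by −0.04, and 13 member probes changed sign. The 5 probes called lower kept that call under each of these settings.

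The fold required also changed the counts. At 1.3-fold 10 member probes (background 0.423%) and 8 member genes (background 0.524%) were lower. At 2-fold only the second Junb probe remained (1 probe, background 0.0557%), with 0 genes (background 0.0702%). Taking the mean of a gene's probes left 3 member genes called lower (background 0.192%), Nr4a1, Nr4a2 and Junb. The calls of Btg2 and Gadd45b thus rest on 1 probe each. Nr4a1 and Nr4a2 also have only 1 probe each, so averaging could not change their calls. A mean ratio below −0.2 was found for 14 member genes without the offset (6.99% of all genes), 14 with the scanner's ratios (8.79%) and 19 with median centring (13.1%). A mean ratio above 0.2 was found for 5, 5 and 0 member genes under the same settings, against 9.03%, 10.8% and 1.67% of all genes.

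**Figure D3:**
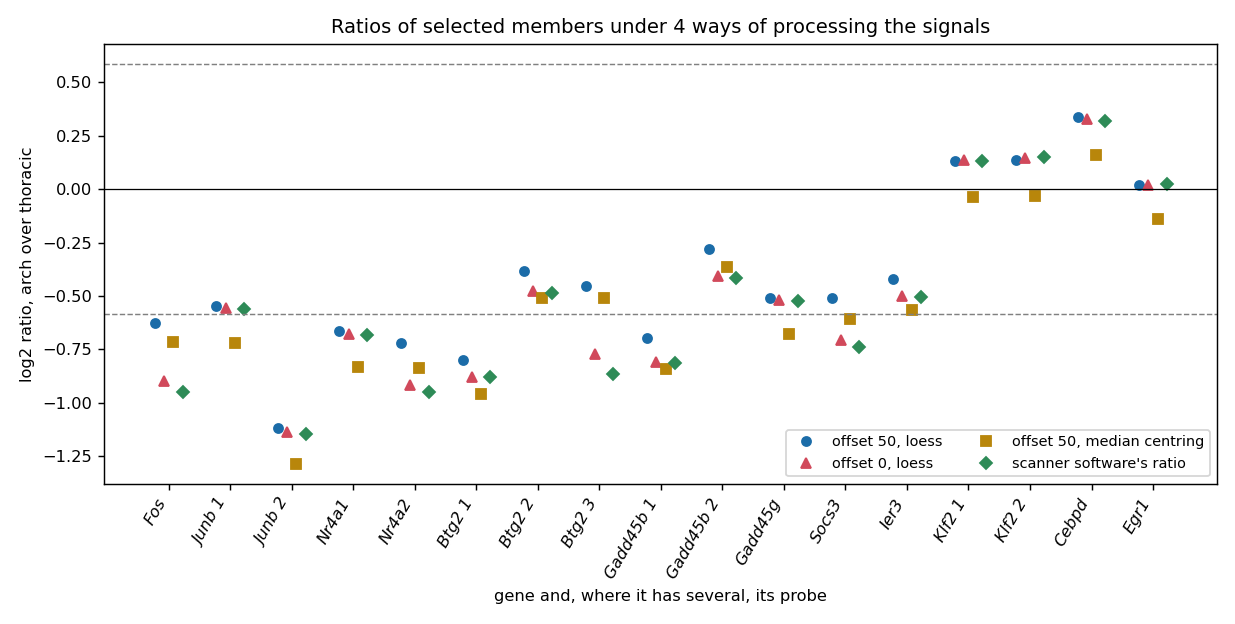
Log2 ratio of arch over thoracic aorta (y axis) for selected probes (x axis) under 4 ways of processing, with dashed lines at 1.5-fold. The probes of Nr4a1, Nr4a2 and Gadd45b 1 stay below the lower line under all 4, those of Fos and Btg2 3 move by the most when the offset is removed, and both Klf2 probes cross 0 with median centring.

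Genes outside the members that belong to the same response were described from lists chosen with earlier results known. Counts of 0 called in lists of related genes and cell type markers are near the shares of all genes, 0.229% lower and 0.257% higher. Of 44 other rapid response genes 42 were measured. In them 1 gene was called lower (background 0.229%) and 0 higher (background 0.257%). A mean below −0.2 was found for 14 (background 2.88%) and one above 0.2 for 2 (background 3.98%), and 23 were below 0 on both arrays (background 26.5%). Their median was −0.05, which became −0.17 with the scanner's ratios and with the value table and −0.12 with median centring. The gene called was Rgs2, which limits G protein signalling from vasoconstrictor receptors. It had 3112 and 3213 units in the arch, against 5997 and 6158 in the thoracic aorta (−0.94 ± 0.00), with no overlap, and another probe gave −0.30. The next lowest was the monocyte chemokine Ccl2 (−0.61 ± 0.10), which missed the rule on array 1 at −0.51, followed by Csrnp1 (−0.45 ± 0.02) and F3, tissue factor (−0.44 ± 0.01). The highest was the matricellular gene Ccn2 (0.24 ± 0.01).

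The upstream components showed smaller ratios. None of 13 measured genes of the SRF and CREB list was called (median 0.02, but −0.11 with median centring), where Srf measured −0.16 ± 0.02 and the Egr corepressor Nab1 0.30 ± 0.05. None of 26 MAP kinase cascade genes was called either (median −0.03), and the highest ratio among them was 0.17, for Mapk12. Other bZIP partners (18 genes, median −0.04, from −0.18 for Atf5 to 0.20 for Cebpa), other dual-specificity phosphatases (8 genes, median −0.05) and other Socs genes (7 genes, median −0.04) had 0 calls. Among 11 other Klf genes 0 were called and the median was −0.02, with Klf5, a proliferative factor of smooth muscle, at −0.44 ± 0.03. Klf5 is dim, at 76.0 and 80.6 units in the arch and 105 and 106 in the thoracic aorta, and the scanner's ratio put it at −1.22.

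Lists of other stress responses were included for comparison. Of 11 heat shock genes 0 were called (median 0.01, but −0.16 with median centring), with Hsph1 at −0.27 ± 0.01 and Hspa1a at 0.26 ± 0.00. Of 8 glucocorticoid targets 1 was higher (background 0.257%), Pdk4, which shifts fuel use towards fat (0.73 ± 0.00). That call ended with median centring, where array 2 gave 0.58 and the mean was 0.60. Ddit4, an mTOR inhibitor, measured −0.40 ± 0.04 and the median was −0.17. The 14 housekeeping genes had a median of 0.05, but −0.09 with median centring, with 0 called.

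**Figure D4:**
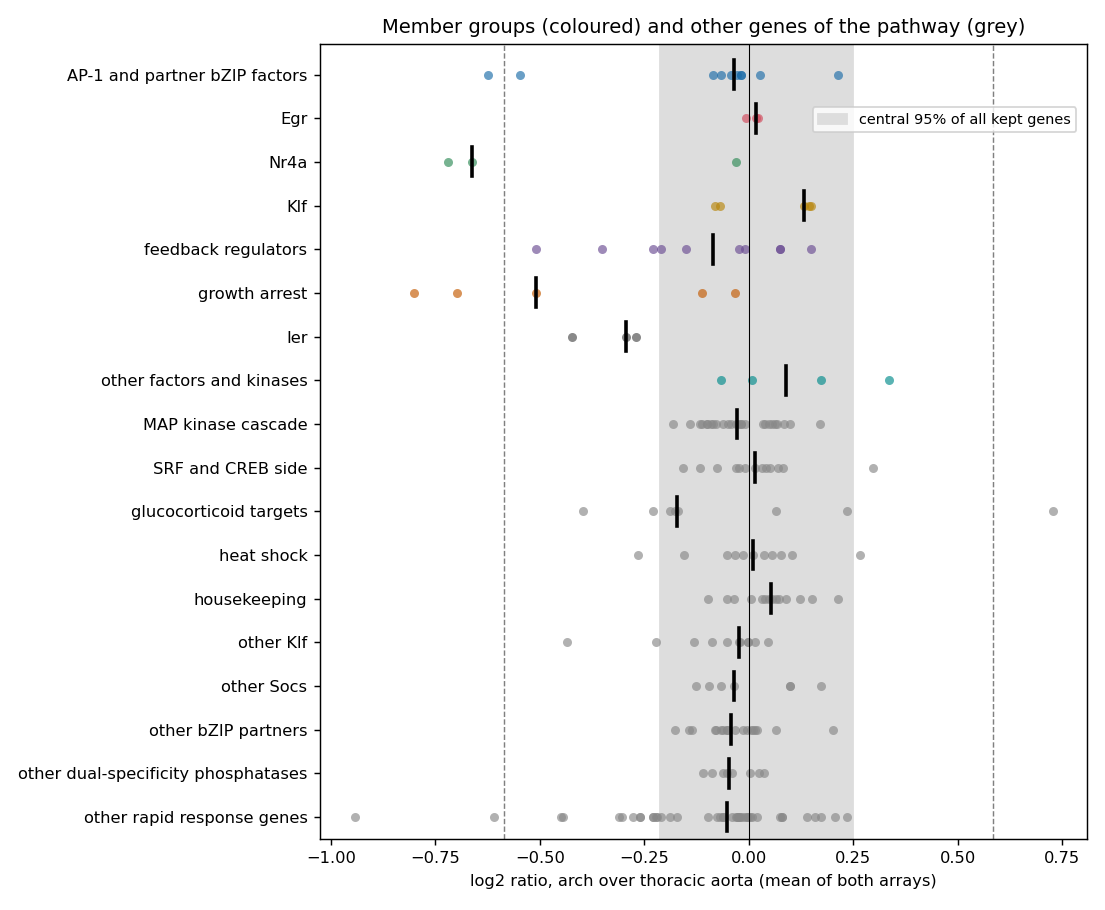
Mean log2 ratio of arch over thoracic aorta (x axis) of each gene in the 8 member groups (coloured points) and in lists of related genes (grey points), with a black bar at each median. The grey band spans the central 95% of all genes and dashed lines mark 1.5-fold; the medians of Nr4a (−0.66), growth arrest (−0.51) and Ier (−0.30) lie left of the band and those of the other lists within it.

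Cell type markers moved between the pools as well. Macrophage markers had a mean below 0 in 9 of 9 genes (background 48.5%), and 8 were below 0 on both arrays (background 26.5%). Their median was −0.13 with 0 called (Tyrobp −0.35, Lyz2 −0.29). Their summed level was 23712 and 21505 units in the arch, against 26617 and 28090 in the thoracic aorta. Adipocyte markers were called higher in 6 of 9 genes (background 0.257%, median 0.68, Cox7a1 0.89, Cidea 0.81). With median centring 1 was called, Cox7a1 (median 0.55). Their summed levels were 27855 and 27278 in the arch, against 19181 and 19113 in the thoracic aorta. Of 7 cardiomyocyte markers 3 were called higher (background 0.257%, median 0.28, Myl7 2.33), while Actc1, the brightest of them, measured −0.05 ± 0.11. The 4 mesothelial markers had a median of 0.48. Smooth muscle markers, the defining set for this tissue, were bright for Acta2 and Tagln and had a median of −0.08 over 10 genes with 0 called (Des and Myh11 −0.22 each). Their summed level was 161038 and 152059 in the arch, against 159904 and 156251 in the thoracic aorta. Medians were 0.06 for endothelium, 0.04 for adventitial fibroblasts, 0.04 for blood, −0.03 for skeletal muscle and 0.03 for nerve. Single markers behind these medians went both ways. Fibroblast markers ran from −0.30 for Col1a1 to 0.55 for Lum, and blood markers from −0.30 for Alas2 to 0.67 for S100a9. With median centring fibroblasts turned to −0.13, blood to −0.04, skeletal muscle to 0.01 and nerve to just below 0. No marker in these lists other than those of fat and heart was called. The part of any cell type in the ratios of the immediate early genes was not tested.

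The promoter letters were read for all members that the RefSeq table held, 34 of the 43, over the 250 bases before each annotated start and on both strands. Half-sites of the cyclic AMP response element (TGACG or CGTCA) were in 19 of 34 genes (55.9%), against 19.8% of 27025 genes in the table. The half-site contains CG, and members and table genes were not matched for base composition, so these shares do not allow for it. The complete element TGACGTCA, which contains both overlapping half-sites, was in 4 (Btg2, Dusp1, Errfi1 and Maff; 11.8%, against 1.77%). The SRF-binding CArG box was found in 2 (Egr2 and Zfp36; 5.88%, against 1.62%), and the AP-1 letters TGANTCA in 2 (5.88%, against 7.82%). TATAAA or its reverse complement was in 8 genes (23.5%, against 14.3%), the GC box GGGCGG or its reverse complement in 27 (79.4%, against 35.4%), and the E-box CACGTG in 9 (26.5%, against 6.86%). The NF-kappaB motif was in 6 (17.6%, against 4.46%) and the Nr4a response element AAAGGTCA in 0 (against 1.55%). A gene with several starts counts once if any of its windows holds the letters. Egr1 was among the members without an entry. Letters further than 250 bases before a start were not read for any gene, Fos included.

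Set beside the ratios, half-sites were in 7 of the 13 matched genes with a mean below −0.2 and in 12 of the other 21. This is a count, and no link between letters and ratios was tested. Among the 4 genes called lower, Nr4a1 and Nr4a2 hold 4 each and Btg2 the complete element, as printed above, and Gadd45b none. Fos, at −0.62, holds 2 and Junb, at −0.55, holds 1. Dusp1, Errfi1 and Maff also hold the complete element, with ratios of −0.35, −0.21 and −0.02. Cebpb, at −0.07, holds 3 half-sites. Socs3 and Gadd45g, each at −0.51, hold none in this window. These matches are letters only, and no binding was measured.

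**Figure D5:**
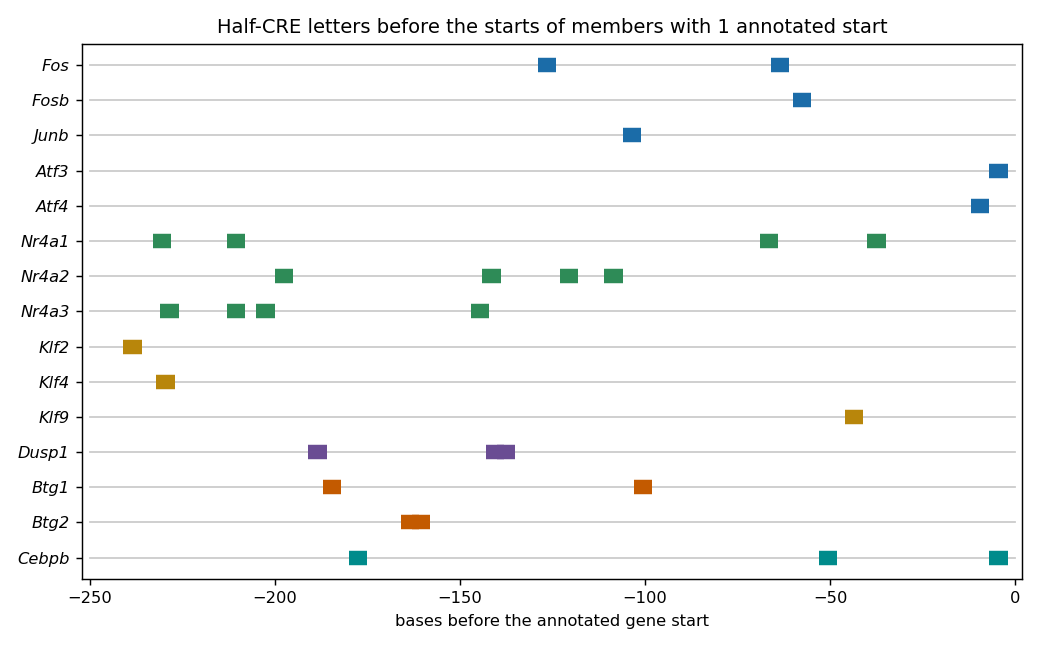
Positions of the half-site letters of the cyclic AMP response element (coloured blocks, by member group) in the 250 bases before the annotated start (x axis, in bases) for members with 1 annotated start and at least 1 match (y axis). The 3 Nr4a genes carry 4 blocks each, and the touching blocks of Dusp1 and Btg2 are the complete element.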

How the data were processed

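The members, their groups and the lists of related genes and cell type markers were chosen with earlier results of these data known. The submitters' processing notes name Agilent Feature Extraction 9.1.1.1 as the reading software. For every spot and dye the scanner files hold a mean signal and a local background as intensity, per the file headers, with flags for outliers, saturation and signals well above background. They also hold a log10 ratio of processed Cy5 over Cy3 signals, deposited by the authors. The value table of the series, also deposited, matched that log10 ratio, with the arch on top, for 99.9% of spots (tolerance 1e-06), with medians of 0.

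From the intensities, background was corrected by normexp with an offset of 50 and ratios were normalised by loess within each array, with control spots at weight 0 (limma 3.58.1, R 4.3.3). Outlier spots (20 and 4) were left out, the ratio of array 2 was inverted, and repeated spots were averaged by probe. Levels were taken per channel after between-array normalisation of mean intensity (Aquantile). Both arrays hold the same RNA extracts and count as 1 replicate. Median spot signals ran from 87.1 to 97.1 intensity units over local backgrounds of 40 to 48, and 71.3% to 81.5% of gene spots were well above background per channel. Across genes the arrays' ratios correlated with r = 0.581, but by rank with 0.248 only. Half-differences had an SD of 0.07, and 0 genes met the 1.5-fold rule by dye in place of region. No member probe was saturated. Members described one by one were those called, those whose probes disagreed in sign or by over 0.5, those called under an alternative and the one with the strongest signal in each group. From each list they were the called genes or the 2 with the largest ratios. A gene that this rule picks is not reported here. Others were given by value to account for every member. Symbols and promoters came from RefSeq tables (GRCm38.p6), and probe sequences were not used here. The rules were tested on simulated data. Alternatives were an offset of 0, median centring, the scanner's ratios, the value table, other filters on dim probes, other folds, the mean of a gene's probes and each array alone.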

Additional observations from a re-analysis of the deposited data

How the results depend on the processing

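No paired analysis was possible because both arrays hold the same pair of RNA pools, so no result came from a test. Alternatives changed how many probes and genes were called, mostly through dim probes and the fold required, and no called member probe turned its direction. Member probes lower in the arch (5) numbered 8 with an offset of 0, with the scanner software's ratios and with the value table, 10 at 1.3-fold and 1 at 2-fold, and 6 to 7 from 1 array alone. Member genes lower (4) numbered 8 at 1.3-fold, 0 at 2-fold, 3 as the mean of a gene's probes and 5 to 6 from 1 array alone. Over all probes, 56 were lower, against 126 with an offset of 0, 85 with median centring, 160 with the scanner's ratios and with the value table, 129 at 1.3-fold, 17 at 2-fold and 75 to 77 from 1 array. The 64 probes higher became 146, 35, 200, 200, 161 and 11 under the same settings, and 83 to 101 from 1 array. Over all genes, 49 were lower, against 104, 75, 128, 128, 112 and 15, and 62 to 67 from 1 array. The 55 genes higher became 117, 28, 152, 152, 134 and 9, and 72 to 81 from 1 array. The lists of related genes had 1 gene lower, against 3, 2, 3, 3, 5 and 0 and 1 to 2 from 1 array, and 1 higher, against 0 with median centring and 0 at 2-fold and 1 from either array. Calls of members as higher were 0 from either array.

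Median centring set the medians at −0.17 for all members, −0.17 for AP-1, −0.017 for Egr, −0.83 for Nr4a, −0.036 for Klf, −0.24 for feedback regulators, −0.68 for growth arrest, −0.43 for Ier and −0.037 for other factors, so Egr, Klf and the other factors changed sign. The scanner's ratios and the value table each gave −0.68 for Nr4a, −0.11 for feedback regulators and −0.36 for Ier. An offset of 0 gave −0.10 for feedback regulators and −0.36 for Ier. Probes well above background in both regions gave −0.69 for Nr4a and −0.15 for feedback regulators, and the mean of a gene's probes gave −0.27 for Ier. From 1 array alone the medians ran from −0.10 to −0.045 for all members, −0.05 to 0.01 for AP-1, 0.01 to 0.03 for Egr, −0.67 to −0.65 for Nr4a, 0.0069 to 0.12 for Klf, −0.12 to −0.11 for feedback regulators, −0.61 to −0.41 for growth arrest, −0.32 to −0.30 for Ier and 0.03 to 0.17 for other factors. Array 2 alone gave the 0.0069 for Klf.

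The error given covers the arrays only, since 1 pool stands for each region. The offset of 50 compresses ratios of probes near background, such as Klf5, and the readings of Nr4a3, Egr3 and Fosl1 lay too near it to bear on a difference. Signal over background therefore limits the dim members more than Junb, Nr4a1 or Cebpd.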
